A study of Mus musculus with 7 samples.

Results

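The 10 receptors described here are G protein-coupled receptors through which feeding-related peptides, hormones and transmitters act on hypothalamic neurons. They are Npy1r, Npy2r and Npy5r for neuropeptide Y, Mc3r and Mc4r for melanocortins, Ghsr for ghrelin, Glp1r for glucagon-like peptide-1, Htr2c for serotonin, Cnr1 for endocannabinoids, and Gpr83. They were chosen by name, as every probe whose platform annotation carries one of these 10 symbols and no other. This gave 13 probes, of 25697 on the array, with 3 for Ghsr, 2 for Cnr1 and 1 for each other receptor. Expression was measured in arcuate nucleus tissue of 4 Dusp8-deficient mice and 3 control littermates, 1 Illumina bead array for each animal. Dusp8 encodes a phosphatase of mitogen-activated protein kinases. All 7 animals were C57BL/6J males aged 40 weeks. Each was moved at 8 to 10 weeks of age, per the labels, from chow to a diet with 45% of its energy as fat and kept on it for 30 weeks. The sources used here do not say how the Dusp8 allele was made. The labels call the samples biological replicates. The Dusp8-deficient arrays are headed ko_108, ko_125, ko_148 and ko_168, and the control arrays are headed wt_136, wt_145 and wt_177.

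In the arcuate nucleus, neurons that make Npy and Agrp drive feeding, and neurons that make Pomc, the precursor of melanocortins, restrain it. Both kinds are steered by hormones from the gut, such as ghrelin and glucagon-like peptide-1, and by serotonin and endocannabinoids. Npy acts on target neurons through the receptors encoded by Npy1r and Npy5r, while the product of Npy2r is best known as a presynaptic receptor that limits Npy release. Melanocortins and Agrp compete at the products of Mc3r and Mc4r, and loss of Mc4r causes obesity in mice.

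Npy1r was the one receptor whose Dusp8-deficient and control arrays did not overlap. It lies next to Npy5r on chromosome 8, with no protein-coding gene between them in the RefSeq table, and the genes face away from each other. Their promoter windows are shown because the groups overlapped for Npy5r and not for Npy1r. Both had lower means in Dusp8-deficient arrays, neither was called, and the difference between the neighbours was not tested. Each window runs from 250 bases before to 50 bases after a RefSeq start site in build GRCm38.p6. Capitals mark a match to the AP-1 motif TGANTCA, the site bound by Jun and Fos proteins. Jun is a substrate of Jnk, a kinase family that Dusp8 acts on. Any link of this motif to the Npy1r readings was not tested.
Npy1r, chr8:66697172-66697471, plus strand: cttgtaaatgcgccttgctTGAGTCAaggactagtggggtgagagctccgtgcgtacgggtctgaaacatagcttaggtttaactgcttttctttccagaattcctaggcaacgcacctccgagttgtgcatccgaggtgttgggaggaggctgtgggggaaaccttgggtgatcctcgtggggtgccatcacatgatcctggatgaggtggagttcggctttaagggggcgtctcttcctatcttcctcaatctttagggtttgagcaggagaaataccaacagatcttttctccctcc
Npy5r, chr8:66688045-66688344, minus strand: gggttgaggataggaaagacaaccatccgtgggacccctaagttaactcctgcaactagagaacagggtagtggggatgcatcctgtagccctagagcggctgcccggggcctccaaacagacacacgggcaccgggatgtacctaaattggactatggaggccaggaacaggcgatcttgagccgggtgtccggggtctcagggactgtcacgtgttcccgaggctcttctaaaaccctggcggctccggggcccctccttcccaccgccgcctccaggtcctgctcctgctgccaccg

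The Npy1r window holds 1 match to TGANTCA and the Npy5r window holds 0. On both strands, 7.81% of 32851 promoter windows of this length have a match. Of 11 windows searched for 9 of the receptors, 2 hold one, those of Npy1r and Htr2c. The motif TGACG, the core of a cyclic AMP response element, was matched in 2 of the 11 windows, those of Mc3r and Gpr83, and in 20.8% of all windows. The TATA box TATAAA was matched in 1, that of Gpr83, and in 13.6% of all windows. The search of the receptors left out chromosome 18, where Mc4r lies, so no window of Mc4r was searched. These matches describe the letters of the windows and say nothing of binding in this tissue.

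The label of the animals was checked on Dusp8 itself. Its deposited signal was 104, 77, 94 and 98 units in ko_108, ko_125, ko_148 and ko_168, against 624, 558 and 540 units in wt_136, wt_145 and wt_177. It was the only probe that passed the test over all 14067 probes tested (log2 difference -2.52, SE 0.23, limma with Benjamini-Hochberg adjustment, adjusted p = 0.00963), which is 0.00711% of them. Leaving out ko_148, ko_168, wt_136, wt_145 or wt_177 took its adjusted p to between 0.0574 and 0.118. Between 47.8% and 54.4% of all probes were detected on an array, and array means lay between 58.0 and 74.9 units. The arcuate neuron markers Npy and Cartpt were detected on all 7 arrays, with ko_108 apart from the others. Pomc, of the same list, was detected on only 5 of 7 arrays. Its reading in ko_108 was 5 units, the same as in wt_145. The mean of 13 arcuate neuron markers was -1.15 log2 units in ko_108 relative to the mean over arrays and 0.02 to 0.28 in the other 6, and the mean of 13 oligodendrocyte markers was 1.14 in ko_108 and -0.55 to 0.09 elsewhere. Of the 13 arcuate neuron markers, 12 had lower means in Dusp8-deficient arrays, and of the 13 oligodendrocyte markers 12 had higher ones, with 0 called in either list. The summed signal of the arcuate neuron markers was 2194 to 6777 units in Dusp8-deficient arrays and 5283 to 6785 in controls. The summed signal of the oligodendrocyte markers was 3018 to 7480 units in Dusp8-deficient arrays and 2533 to 4027 in controls. Other marker means stood at an end of their range in ko_108 too. The mean was -0.79 for tanycyte markers (-0.15 to 0.52 elsewhere) and -0.88 for pituitary markers (-0.37 to 0.95 elsewhere). For astrocyte markers it was 0.30 (-0.18 to 0.11 elsewhere). The plot of differences with arrays left out therefore shows every receptor without ko_108 as well. In bulk tissue, fewer cells of a type and less RNA per cell cannot be told apart.

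Many of the receptor readings lay near the background. A probe was called detected where its detection p was below 0.05. This held for 62 of the 91 readings of the 13 probes, and for 54 of 91 at a detection p below 0.01. On all 7 arrays, 5 probes were detected, those of Npy1r, Npy2r and Gpr83, 1 for Cnr1 and 1 for Ghsr. A probe was tested when detected on at least 3 arrays. This left 11 probes of 9 receptors in the test, and left out the Htr2c probe and 1 Ghsr probe. Each of the 11 was detected on at least 1 array of each group.

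**Figure D1:**
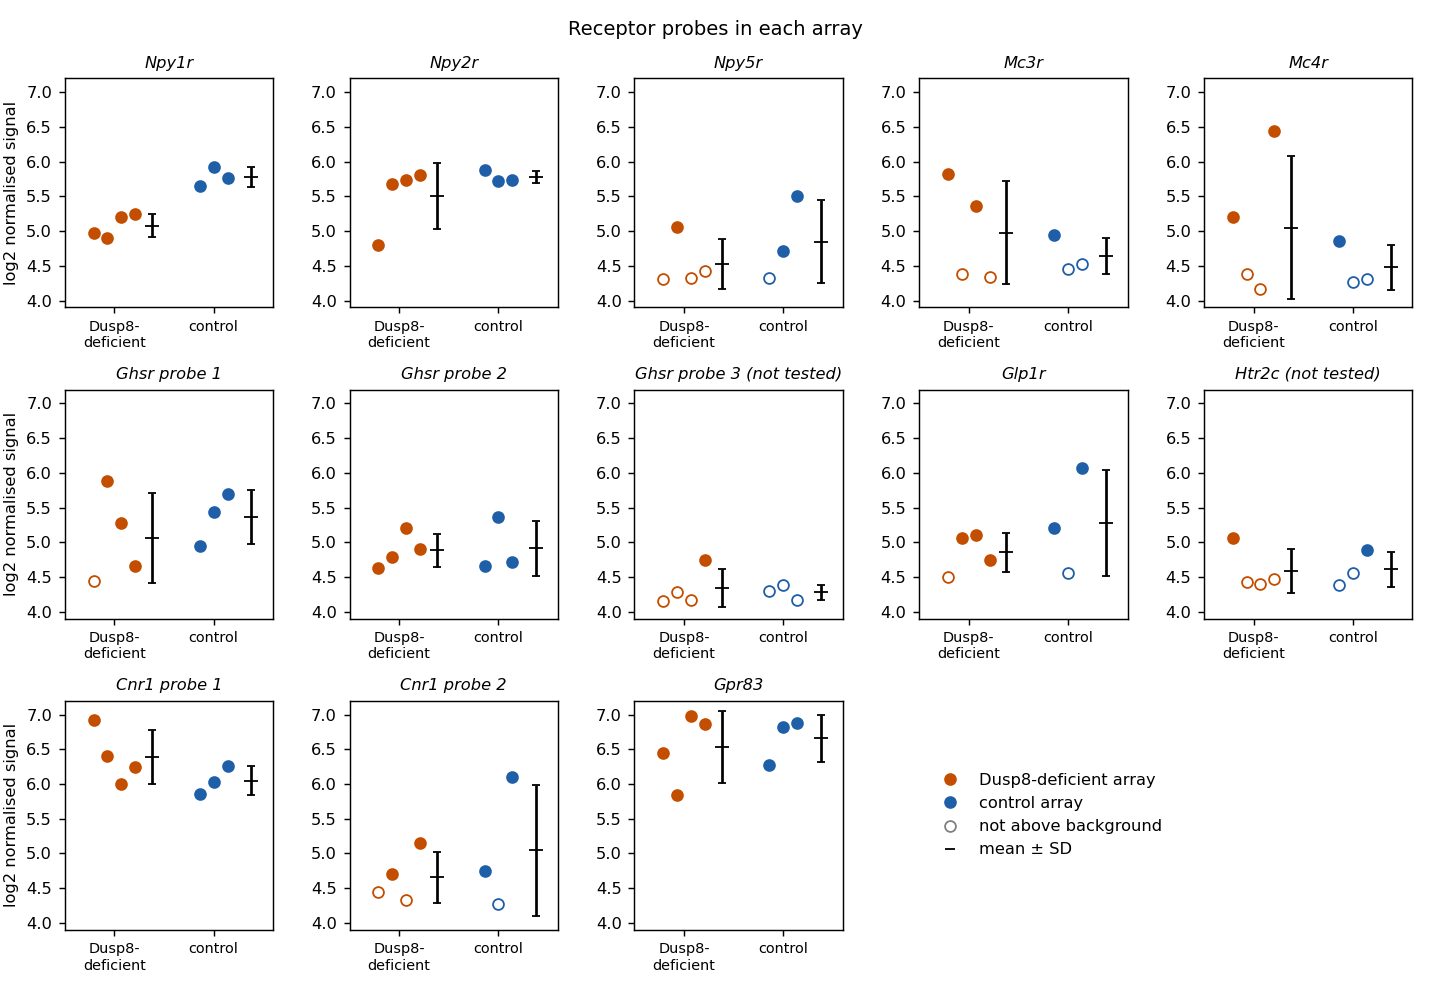
Log2 normalised signal of the 13 receptor probes, 1 point per array, with Dusp8-deficient arrays left of controls in each panel, open points where a probe was not above background, and bars for mean ± SD (n = 4 and n = 3). The 4 Npy1r readings of Dusp8-deficient arrays, 4.90 to 5.24, lie below the 3 control readings, 5.65 to 5.93, and the other panels overlap.

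No receptor probe passed the test. All 11 had an adjusted p of 0.996 (limma, Benjamini-Hochberg over 14067 probes). At an unadjusted p below 0.05 there was 1 of 11 receptor probes, and it was lower in Dusp8-deficient arrays, against 4.81% of all tested probes in either direction and 2.5% lower. Groups that did not overlap were seen for 1 of 11 receptor probes, against 5.57% of all tested probes, 2.79% lower and 2.78% higher. The means of 8 of the 11 probes were lower in Dusp8-deficient arrays and those of 3 were higher. Counting the brightest probe of each receptor, 6 were lower and 3 higher, with a median log2 difference of -0.27 beside a median of -0.00193 over all tested probes. That median was -0.09 without ko_108 and -0.02 without wt_177. The 95% intervals of 10 of the 11 probes included 0. For 4 of the 11 the interval lay within a 2-fold change in either direction. It reached a 2-fold drop for 5 probes, Npy1r among them, and a 2-fold rise for 2. For the 6 of these other than Npy1r the interval also held 0, so that a change of that size could not be told from none.

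**Figure D2:**
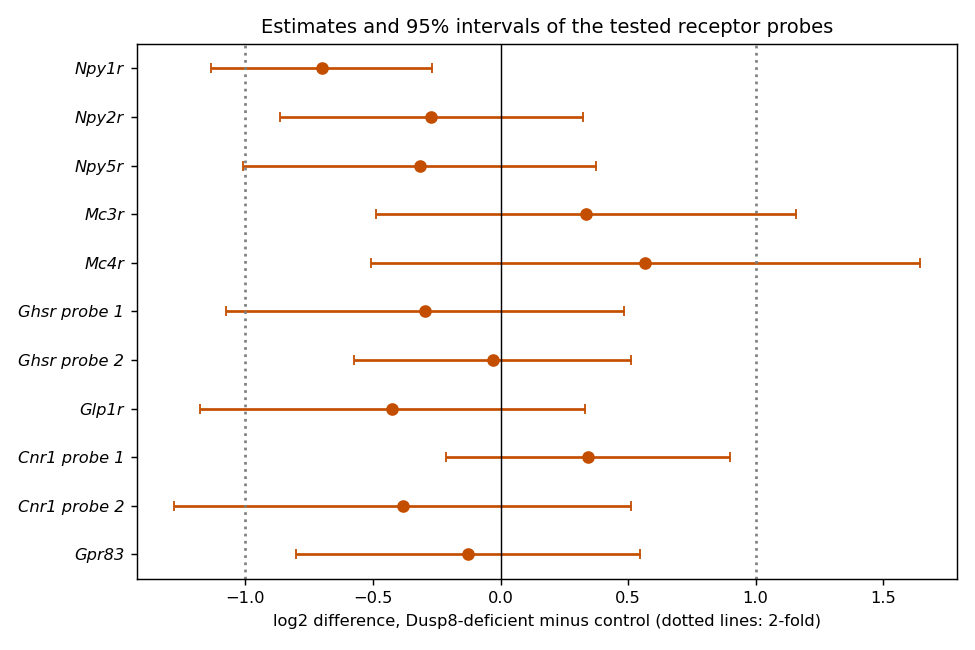
Log2 difference of each tested receptor probe, Dusp8-deficient minus control, with its 95% interval from limma (4 against 3 arrays) and dotted lines at a 2-fold change. The Npy1r interval, -1.13 to -0.27, is the one that leaves out 0, before adjustment.

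Npy1r, which encodes a receptor that carries the feeding effect of Npy, had a deposited signal of 13, 19, 23 and 19 units in ko_108, ko_125, ko_148 and ko_168. Its signal was 36, 44 and 34 units in wt_136, wt_145 and wt_177. Every Dusp8-deficient array lay below every control array. On the normalised log2 scale the level was 5.08 ± 0.17 in Dusp8-deficient arrays (SD, n = 4) and 5.78 ± 0.14 in controls (SD, n = 3). The log2 difference was -0.70 (SE 0.19), a 1.63-fold lower level, with an unadjusted p of 0.00482 and an adjusted p of 0.996 (limma). It was thus not called, and 39 of the 14067 tested probes had a p at least as small, 24 of them lower in Dusp8-deficient arrays. The spread of this probe within groups was small, with a residual SD of 0.16 beside a median of 0.34 over all tested probes. Its log2 difference was -0.67 without ko_108, and between -0.77 and -0.62 when any 1 array was left out, with unadjusted p between 0.00506 and 0.0243. It moved to -0.39 with a larger constant of 50 added to the signal before the logarithm, since its readings lie close to the background.

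Npy2r, the presynaptic Npy receptor that peptide YY also acts on, read 10, 44, 41 and 36 units in ko_108, ko_125, ko_148 and ko_168. The controls read 45, 36 and 33 units. Only ko_108 stood below the rest. The log2 level was 5.51 ± 0.47 in Dusp8-deficient arrays (SD, n = 4) and 5.78 ± 0.09 in controls (SD, n = 3), a difference of -0.27 (SE 0.27, 95% interval -0.87 to 0.32). Without ko_108 the difference was -0.04. In that array the 13 arcuate neuron markers were also at their lowest mean, and their part in the reading was not tested.

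Npy5r, the further Npy receptor linked to feeding, gave 1, 24, 2 and 4 units in ko_108, ko_125, ko_148 and ko_168. It gave 2, 10 and 26 units in wt_136, wt_145 and wt_177. It was detected on 1 of 4 Dusp8-deficient arrays and 2 of 3 controls, and the array of each group with the highest reading, ko_125 and wt_177, had nearly the same signal. The log2 difference of -0.32 (SE 0.31) was 0.01 without wt_177 and -0.58 without wt_136. The non-overlap seen for its neighbour Npy1r was thus not seen here, although the difference between the neighbours was not tested.

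Both melanocortin receptors were detected on 2 of 4 Dusp8-deficient arrays and on 1 of 3 controls. Mc3r, which in the arcuate nucleus is found on Agrp and Pomc neurons, read 36, 5, 28 and 2 units in the Dusp8-deficient arrays, with ko_108 and ko_148 detected. It read 16, 5 and 6 units in the controls, with wt_136 detected. The log2 difference was 0.33 (SE 0.37). It was 0.05 without ko_108, 0.53 without ko_125 and 0.56 without ko_168.

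Mc4r, which acts mainly on target neurons outside the arcuate nucleus such as those of the paraventricular nucleus, read 18, 5, -6 and 67 units in ko_108, ko_125, ko_148 and ko_168, against 14, 0 and 1 units in wt_136, wt_145 and wt_177. The reading of ko_168 was more than 3 times as high as any other. Its log2 level was 5.05 ± 1.03 in Dusp8-deficient arrays (SD, n = 4) and 4.48 ± 0.32 in controls (SD, n = 3), and its residual SD of 0.82 was the largest of the 11 tested receptor probes. The log2 difference of 0.57 (SE 0.48, 95% interval -0.51 to 1.64) was 0.10 without ko_168 and 0.85 without ko_148. Markers of neighbouring nuclei, among them Sim1 of the paraventricular nucleus, were at their lowest mean in ko_168 (-0.49 for 8 genes, against -0.22 to 0.30 in the others). The part of neighbouring tissue in the Mc4r readings was not tested. Sim1 itself read 3 units in ko_168, against 2 to 20 units in the other Dusp8-deficient arrays and 0 to 14 in controls.

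Ghsr, the receptor for the gut hormone ghrelin, was read by 3 probes, of which 2 were tested. The brightest, ILMN_2872464, gave 4, 53, 25 and 8 units in the Dusp8-deficient arrays and 16, 27 and 32 units in the controls, with a log2 difference of -0.30 (SE 0.35). The second, ILMN_2589048, was detected on all arrays and gave 7, 16, 23 and 12 units in Dusp8-deficient arrays and 10, 25 and 9 units in controls. Its log2 difference was -0.03 (SE 0.24), and lay between -0.16 without wt_136 and 0.20 without wt_145. The last, ILMN_1221883, was detected in ko_168 alone, at 9 units, and was not tested. Over the 7 arrays the tested probes had a Pearson r of 0.25 (Spearman rho 0.36). The log2 difference of the first moved to -0.09 without ko_108, its lowest array, to -0.13 without wt_177 and to -0.16 without ko_168. It moved the other way to -0.56 without ko_125 and to -0.51 without wt_136.

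Glp1r, the receptor for glucagon-like peptide-1, which lowers food intake, read 5, 24, 20 and 9 units in ko_108, ko_125, ko_148 and ko_168. It read 22, 7 and 45 units in wt_136, wt_145 and wt_177. The highest reading was that of wt_177, and the groups overlapped over most of their range. The log2 difference was -0.42 (SE 0.34, 95% interval -1.18 to 0.33). It was -0.02 without wt_177 and -0.79 without wt_145, the lowest control.

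Htr2c, the serotonin receptor through which serotonin acts on Pomc neurons, was not tested. Its signal was 15, 6, 4 and 5 units in the Dusp8-deficient arrays, with ko_108 detected, and 4, 7 and 12 units in the controls, with wt_177 detected. Fitted without the filter on dim probes, its log2 difference was -0.02 (SE 0.20).

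Cnr1, which encodes the CB1 cannabinoid receptor, gave opposite signs on its probes. On ILMN_2670261, detected on all arrays, the signal was 91, 83, 53 and 55 units in ko_108, ko_125, ko_148 and ko_168, and 44, 48 and 53 units in wt_136, wt_145 and wt_177. The Dusp8-deficient arrays reached higher, and the groups met at 53 units. The log2 difference was 0.34 (SE 0.25, 95% interval -0.22 to 0.90), and 0.17 without ko_108, the array with the highest reading and the highest oligodendrocyte markers, whose part in it was not tested. On ILMN_2637188, detected on 4 arrays, the signal was 4, 14, 2 and 17 units in Dusp8-deficient arrays and 12, 0 and 46 units in controls. Its log2 difference was -0.38 (SE 0.40), and 0.15 without wt_177, which held the reading of 46. It was -0.77 without wt_145, the lowest reading.

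Gpr83, a receptor reported to bind a peptide cut from the product of Pcsk1n, did not pass the test and had nearly equal mean signals. The readings were 62, 51, 122 and 99 units in ko_108, ko_125, ko_148 and ko_168, and 65, 96 and 89 units in wt_136, wt_145 and wt_177. The mean signal was 83.5 units in Dusp8-deficient arrays and 83.3 in controls. On the log2 scale the difference was -0.13 (SE 0.30, 95% interval -0.80 to 0.55), so that a change of up to 1.74-fold lower or 1.46-fold higher lay within the interval. It was 0.10 without ko_125, the array with the lowest reading, and -0.32 without wt_136.

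**Figure D3:**
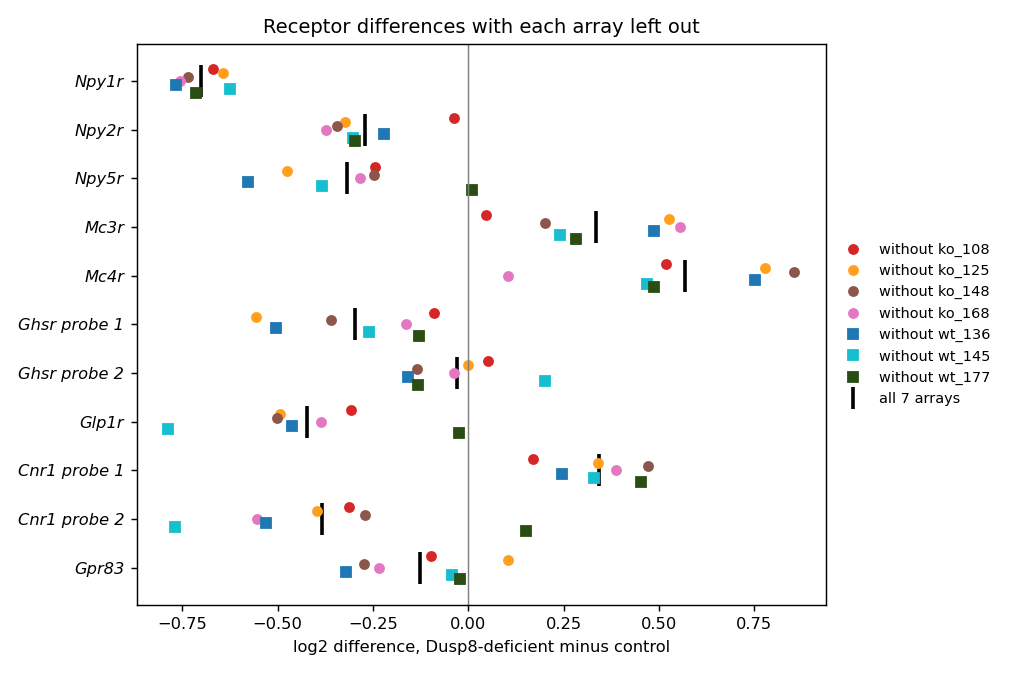
Log2 difference of each tested receptor probe, Dusp8-deficient minus control, with all 7 arrays (black bars) and with each array left out (circles for Dusp8-deficient arrays, squares for controls). Npy1r stays between -0.77 and -0.62, while Npy5r, the second Ghsr and Cnr1 probes and Gpr83 cross 0 without 1 array.

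Among themselves the receptors did not share one pattern over the arrays. On the normalised log2 scale, of the 11 tested probes 5 had their lowest reading in ko_108 and 3 their highest in wt_177. Those at their highest in wt_177 were Npy5r, Glp1r and the second Cnr1 probe. As a description over 7 arrays that share these libraries, Npy5r and the brightest Ghsr probe had a Pearson r of 0.79 (Spearman rho 0.85), and Npy2r and the brighter Cnr1 probe an r of -0.89 (rho -0.77). Residual SDs were above the median of all tested probes for 8 of the 11 receptor probes.

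**Figure D4:**
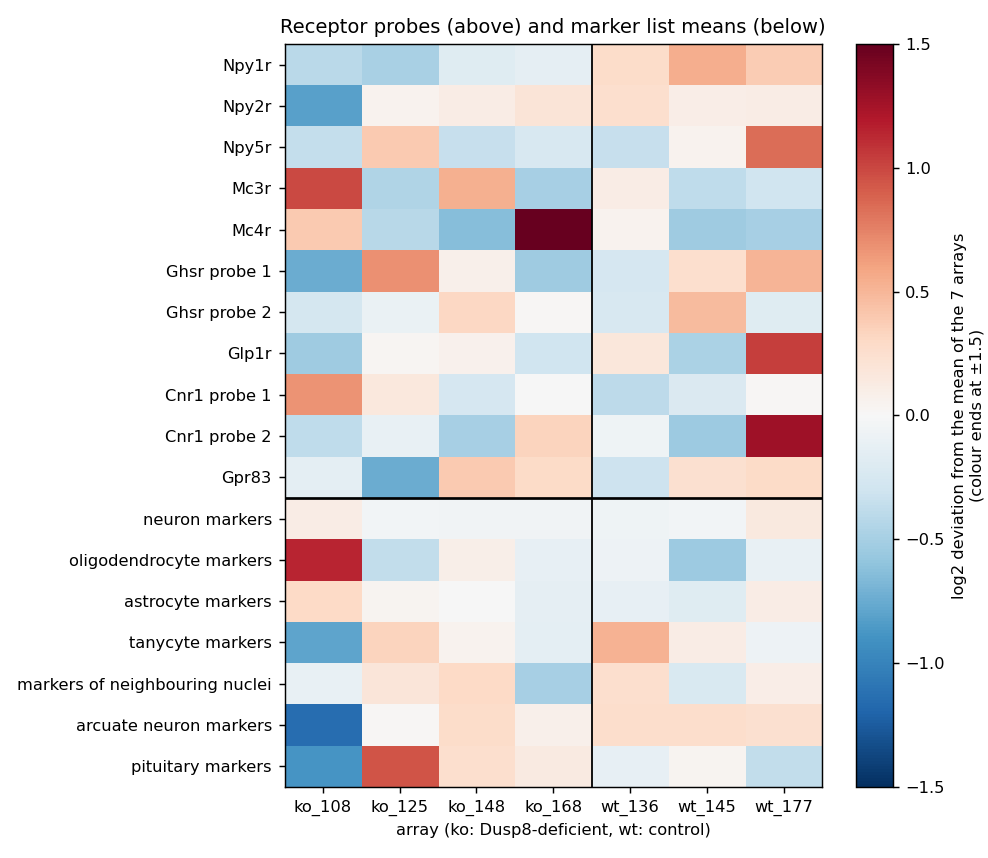
Log2 deviation of each tested receptor probe (upper rows) and of each marker list mean (lower rows) from its mean over the 7 arrays, with Dusp8-deficient arrays left of controls. Array ko_108 is the lowest in arcuate neuron (-1.15), tanycyte (-0.79) and pituitary markers (-0.88). It is the highest in oligodendrocyte (1.14) and astrocyte markers (0.30). Npy1r alone is below its mean in all 4 Dusp8-deficient arrays and above it in all 3 controls.

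The genes whose levels followed each receptor most closely were taken as the 2 of highest Pearson correlation over the 7 arrays among all tested probes, a description in which high values arise from the number of probes searched. For Npy1r they were Sgcb (r = 0.996, rho 0.964) and Gpr75 (r = 0.969, rho 0.901). For Npy2r they were the galanin gene Gal (r = 0.992) and Myt1l (r = 0.984). For Npy5r they were Add1 (r = 0.995) and Olfr412 (r = 0.976). Mc3r was followed by Myh8 (r = 0.985) and Ftcd (r = 0.982), and Mc4r by Tapbpl (r = 0.990) and Dusp19 (r = 0.984). The brightest Ghsr probe was followed by Katna1 (r = 0.987) and Nectin3 (r = 0.977), and Glp1r by Cdc14b (r = 0.991) and Fjx1 (r = 0.978). The brighter Cnr1 probe was followed by Ak5 (r = 0.990) and Phf12 (r = 0.986), and Gpr83 by Tagap (r = 0.981) and Fam161b (r = 0.959).

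The ligands of these receptors, and the enzymes that make or remove them, did not pass either. Of 18 such genes, 13 had a probe and 9 were tested, of which 0 were called, 7 had lower and 2 higher means in Dusp8-deficient arrays, and the median log2 difference was -0.28. That median was -0.15 without ko_108 and -0.16 without wt_177. Like the other lists, it holds probes that passed the filter on dim probes, some of them detected in 1 group only.

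Npy, the ligand of Npy1r, Npy2r and Npy5r, read 46, 404, 739 and 392 units in ko_108, ko_125, ko_148 and ko_168, and 945, 638 and 402 units in wt_136, wt_145 and wt_177, a log2 difference of -1.18 (SE 0.66). The groups overlapped, and ko_108 lay far below every other array. Pomc read 5, 8, 10 and 19 units in Dusp8-deficient arrays and 22, 5 and 62 units in controls (-0.64, SE 0.41). Its probe was near the background, detected on 3 of 4 Dusp8-deficient arrays and 2 of 3 controls. Cartpt, a peptide made in Pomc neurons, read 333 units in ko_108 and 1671 to 1890 in the other Dusp8-deficient arrays, against 1479 to 1794 units in controls (-0.53, SE 0.46). Of the processing enzymes, Pcsk1 read -0.17 (SE 0.22) log2 units, on a probe detected on 1 of 4 Dusp8-deficient arrays and 3 of 3 controls. Pam, which amidates peptides such as Npy, read -0.28 (SE 0.21). Its normalised levels did not overlap, as for 5.57% of all tested probes, but its deposited signals did. These were 596, 973, 1135 and 1215 units in ko_108, ko_125, ko_148 and ko_168, and 1213, 1133 and 1029 units in wt_136, wt_145 and wt_177. Prcp, which inactivates melanocortins, read 0.25 (SE 0.29). Pcsk1n read -0.37 (SE 0.23), and the peptide YY gene Pyy -0.21 (SE 0.20) on a probe detected on 1 of 4 Dusp8-deficient arrays and 2 of 3 controls.

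Ghrl, which encodes ghrelin, was detected on 3 of 4 Dusp8-deficient arrays and on 0 of 3 controls. It thus entered the test through the group where it was high, and its p is no support for a difference. Its signal was 19, 24, 51 and 6 units in ko_108, ko_125, ko_148 and ko_168, and 5, 0 and 1 units in wt_136, wt_145 and wt_177. No control reading was above background. Against the higher of the control reading and the lowest detected value of each control array, its Dusp8-deficient mean was 1.57-fold higher. That is an estimate and not a lower limit, and Ghrl was not called (limma, adjusted p = 0.996). A second Ghrl probe, which was not tested, was detected in wt_145 alone, at 38 units, and in 0 of the 4 Dusp8-deficient arrays.

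Receptors related to the 10 gave the same number of calls, 0. Of 29 other receptors of the same families, 24 had a probe but only 8 were tested, 3 lower and 5 higher, with a median log2 difference of 0.21. That median was 0.05 without ko_168, 0.08 without wt_177, 0.13 without wt_136 and 0.07 for the processed values of replicates 1 to 3. Htr1a, a serotonin receptor that is also an inhibitory receptor on serotonin neurons, read 0, 16, 12 and 1 units in Dusp8-deficient arrays and 24, 12 and 29 units in controls. Its log2 difference was -0.71 (SE 0.25, limma, unadjusted p = 0.0182, adjusted p = 0.996), with normalised levels that did not overlap. Of 60 further hypothalamic receptors for feeding and energy signals, 30 were tested, 15 lower and 15 higher, with a median of -0.00432, which took either sign when 1 array was left out (-0.07 to 0.06). In this list the groups did not overlap for 2 of the 30 genes, against 5.57% of all tested probes. An unadjusted p below 0.05 was seen for 2 of the 30, against 4.81% of all tested probes.

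The 2 genes with an unadjusted p below 0.05 were Gpr75 and Esr1. Gpr75 read 15, 28, 32 and 28 units in ko_108, ko_125, ko_148 and ko_168, and 61, 56 and 50 units in wt_136, wt_145 and wt_177. Like Npy1r, it had no overlap between the groups (log2 difference -0.86, SE 0.20, limma, unadjusted p = 0.00162, adjusted p = 0.996). Esr1, the estrogen receptor, read 4, 36, 19 and 10 units in Dusp8-deficient arrays and 29, 51 and 28 units in controls, with overlap (-0.76, SE 0.28, unadjusted p = 0.0207). A dimmer Esr1 probe read -0.14 (SE 0.19). The other gene of this list without overlap, Galr1, a galanin receptor, lay the opposite way. It read 9, 9, 19 and 9 units in Dusp8-deficient arrays and 6, 4 and 5 units in controls, where it was not above background. Galr1 thus entered the test through the group where it was high, and its p is no support for a difference (limma, adjusted p = 0.996). Measured against the control floor used for Ghrl, its mean was 1.16-fold higher in Dusp8-deficient arrays. That is an estimate and not a lower limit, since the limma interval of its log2 difference ran from -0.13 to 0.76.

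Downstream of the receptors, 25 of 40 genes for accessory proteins, G proteins, adenylyl cyclases and other parts of signal transduction were tested. Of these, 14 were lower and 11 higher, 0 had an unadjusted p below 0.05 on their brightest probe, and the median log2 difference was -0.01 (-0.04 to 0.03 with 1 array left out). Of 10 genes for the synthesis and breakdown of endocannabinoids, the ligands of Cnr1, 9 were tested, 4 lower and 5 higher, with a median of 0.00758 (-0.07 to 0.14 with 1 array left out). Abhd6, a lipase that breaks down 2-arachidonoylglycerol, read 34, 31, 11 and 15 units in Dusp8-deficient arrays and 15, 6 and 3 units in controls (log2 difference 0.61, SE 0.27, limma, unadjusted p = 0.0484, adjusted p = 0.996).

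**Figure D5:**
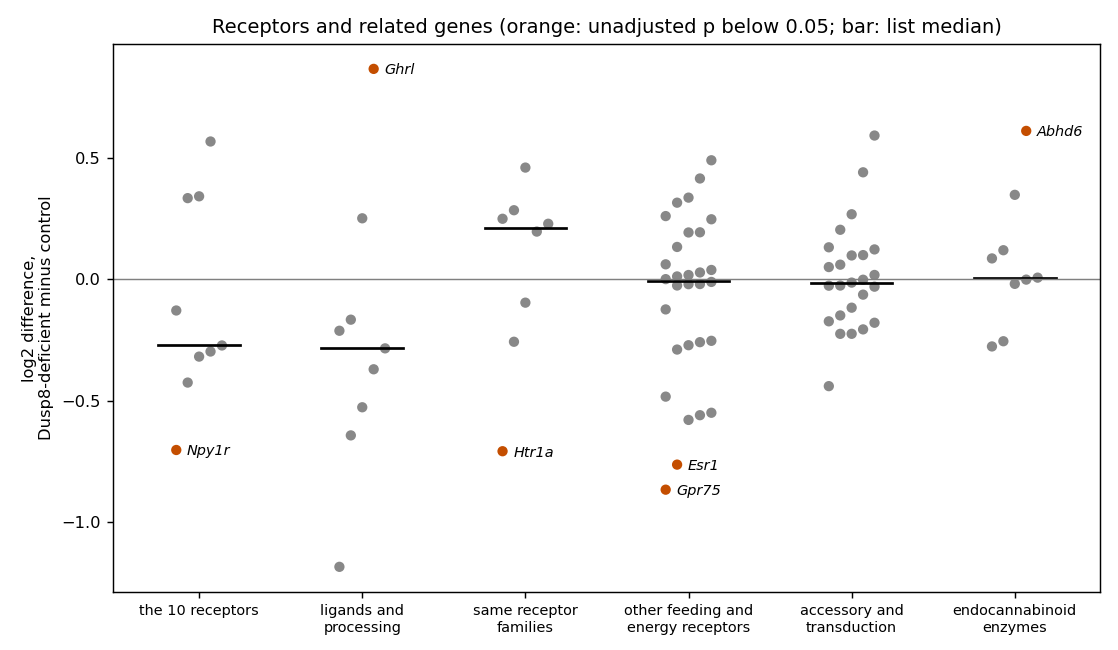
Log2 difference, Dusp8-deficient minus control, of each tested gene in the set of 10 receptors and in 5 lists of related genes (1 point per gene, its brightest probe; horizontal bars are list medians; orange marks an unadjusted p below 0.05). Medians run from -0.28 to 0.21, and Npy1r, Ghrl, Htr1a, Gpr75, Esr1 and Abhd6 are the genes in orange, of which Ghrl was detected on no control array.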

How the data were processed

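Arcuate nucleus RNA of 4 Dusp8-deficient and 3 control mice was amplified, biotin-labelled and hybridised, per the labels' protocols. The authors deposited intensities that were not normalised between arrays, per the file headers. They are whole numbers, some below 0, so a background had been subtracted. A detection p-value was deposited beside each intensity, and the sources used here do not say how it was made. The headings of this table give genotype but no replicate number. A second deposited table of processed intensities, with a median of 21 in each column and its normalisation not stated, served as an alternative.

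Intensities were corrected, quantile-normalised and put on a log2 scale by the neqc function (R 4.3.3, limma 3.58.1, offset of 16, background inferred from the detection p-values). Probes with a detection p below 0.05 on at least 3 of 7 arrays were tested, 14067 of 25697. The test was lmFit and eBayes, two-sided, with Benjamini-Hochberg adjustment over all tested probes and a threshold of 0.05. A gene with several probes is counted by its brightest. The platform annotation gave a single gene symbol for 23978 probes, and the other 1719 were treated as unnamed. All 10 receptor symbols matched the RefSeq table by Entrez ID. The number of arrays limits the precision.

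The receptors and gene lists were chosen with earlier results of these data known. The genes named are the receptors, Dusp8, the measured ligand genes, related genes with an unadjusted p below 0.05 (at most 6 per list) and the 2 genes most correlated with each receptor. Galr1, Sim1 and Creb1 were added after their values were seen. Alternatives changed the background, offset, normalisation, filter, variance model, weights, the table used and the arrays.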

Additional observations from a re-analysis of the deposited data

Results flagged for a closer look

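Dixon's criterion was applied to the 4 Dusp8-deficient arrays, to find values in 1 array that stood well apart from those of its group. Of 40 sets of 4 values examined, 6 were singled out. For independent normal values chance gives about 1 in 20, or 2 in all. The sets share the same arrays and some hold readings near the background, so 6 cannot be read as an excess over 2. It was not applied to the 3 control arrays, so a control array that stood apart would not be singled out here. The Npy2r level in ko_108 was 4.80 log2 units, while the rest of its group read 5.67 to 5.81. The Htr2c level was 5.06 in ko_108, against 4.39 to 4.47, on a probe that was not tested. The Npy5r level was 5.06 in ko_125, against 4.31 to 4.43 on arrays where it was not above background. Cartpt was at 8.68 in ko_108, against 10.5 to 10.8. The mean of the neuron markers was 0.11 in ko_108, against -0.06 to -0.04, relative to the mean over arrays. Control array wt_177 lay higher, at 0.14. The summed signal of the neuron markers went the other way, with 6222 units in ko_108 and 6488 to 8215 on the other arrays. The mean of the endocannabinoid enzyme genes was -0.18 in ko_125, against 0.09 to 0.11.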

How the results depend on the processing

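Under 20 alternatives, 7 of them leaving out 1 array, 0 receptor probes and 0 genes of the related lists were called. Of 213 receptor values, 204 kept their direction and 9 turned, all uncalled. With array weights the log2 difference was 0.0814 for the second Ghsr probe and 0.0417 for Gpr83. With replicates 1 to 3 of the processed values, Mc4r was at -0.10 with and without the replicate block. With 1 array left out, the range was -0.58 to 0.0105 for Npy5r, -0.77 to 0.15 for the second Cnr1 probe, -0.16 to 0.20 for the second Ghsr probe and -0.32 to 0.10 for Gpr83. The number of probes called over the whole table, 1 in the analysis reported, was 0 without the filter, with each probe's own variance, and for the processed values of replicates 1 to 3, both with and without the replicate block, and 0 to 1 with 1 array left out. Same-numbered samples did not deviate together (correlations of -0.06, 0.08 and -0.02), so the numbers were not taken to pair the animals. The alternative that asked for detection on all 7 arrays left the dimmer receptors untested, and the cause of the other shifts was not tested. Signals close to the background limit what can be seen for Npy1r, Npy5r, Mc3r, Mc4r, Ghsr, Glp1r, Htr2c and the second Cnr1 probe.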

Other observations

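Probes of the same gene disagreed beyond the receptors. Creb1, the transcription factor that cyclic AMP signalling activates, read -0.22 (SE 0.25) on its brightest probe. On a second probe, detected on all arrays, it read 139, 107, 128 and 60 units in Dusp8-deficient arrays and 63, 63 and 38 units in controls, a log2 difference of 0.75 (SE 0.28, limma, unadjusted p = 0.0248, adjusted p = 0.996). Creb1 was named after its values were seen.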
